A study of Mus musculus with 13 samples.

Results

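The matrix metalloproteinases and their inhibitors were followed as 10 genes, namely the metalloproteinases Mmp2, Mmp7, Mmp9, Mmp12, Mmp13, Mmp14 and Mmp19 and the tissue inhibitors Timp1, Timp2 and Timp3, chosen by name out of 23785 genes counted in mouse liver. Liver RNA of 13 C57 mice aged 3 months was sequenced after bile duct ligation (BDL), a surgical model of cholestasis and fibrosis, or without it. The no BDL group held 5 mice that the labels call non treated, the miR-Ctrl BDL group held 4 mice given a control oligonucleotide, and the anti-miR-873-5p BDL group held 4 mice given a hairpin inhibitor of the microRNA miR-873-5p (named inhibitor BDL here and anti-miR BDL in the plots). Both oligonucleotides were injected into the tail vein at 60 µg per mouse on days 3 and 5 of BDL, and livers were taken on day 7. No sham operation or injection is stated for the mice without BDL, so surgery and injection cannot be told apart in the comparisons with them.

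Matrix metalloproteinases are zinc-dependent enzymes that cleave collagens, elastin, gelatin and other proteins of the extracellular matrix, and most are secreted as inactive precursors. Tissue inhibitors of metalloproteinases bind the active site and block it. In the fibrotic liver, hepatic stellate cells that have become myofibroblasts deposit collagen, and the balance between these enzymes and inhibitors is known to bear on how much matrix is kept.

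Values are normalized counts, that is reads of a gene as CPM, a library-size scaled count, after TMM scaling, computed over all 13 mice. Each comparison used the quasi-likelihood test of edgeR, and adjusted p is the Benjamini-Hochberg value over all genes tested, with a threshold of 0.05. Pairs of fold changes against no BDL are given for miR-Ctrl BDL and then for inhibitor BDL. The reads assigned to genes numbered 12185333 to 19689037 a mouse. The deposited table of the 2 BDL groups holds miR-Ctrl mice 1, 2 and 4 and inhibitor mice 1, 3 and 4. The mice it lacks, miR-Ctrl mouse 3 and inhibitor mouse 2, lay at -1.77 and -2.01 on the second dimension of a multidimensional scaling plot, whereas the other BDL mice lay between 0.42 and 1.05. That table is labelled as free of outliers, and by the study's methods any outliers were removed after clustering and principal component analysis. The comparison of the BDL groups thus rests on mice kept by their own expression data. Both missing mice are in the tables against no BDL, and results that rest on them are given without them as well. Nothing in the labels says that mice came from separate cages or litters, and each mouse was treated as 1 replicate.

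The sequences that frame these comparisons are those of the inhibited microRNA and of the places where its seed could pair with a member. The mature sequence is shown because it is the target of the inhibitor, with the seed, bases 2 to 8, in capitals. It lies on the minus strand at chr4:36668556-36668576 of GRCm38.p6 in RefSeq.
mmu-miR-873a-5p: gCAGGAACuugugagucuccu
The longest annotated 3′ UTR of each member was searched for GTTCCTG, which pairs with bases 2 to 8, and for TTCCTGA, which pairs with bases 2 to 7 and is followed by A. Matches were found in 3 of the 10 members, shown with the matched letters in capitals.
Mmp7 at base 81 of 228: aaacgcccTTCCTGAgctgcac
Mmp12 at base 2094 of 2134: gcaaatgtTTCCTGAgacagaa
Mmp19 at base 731 of 1724: agcttcatGTTCCTGgaagaga
Mmp2, Mmp9, Mmp13, Mmp14, Timp1, Timp2 and Timp3 held neither. Of 21020 genes with a 3′ UTR, 14.1% held GTTCCTG and 25.2% held either. The same search found 0 matches in the 136 bases annotated for Gnmt, so it returned nothing for that gene either. The study reported Gnmt as a target of this microRNA from a luciferase reporter assay in mouse hepatocytes. There a mimic of the microRNA lowered the Gnmt reporter, and the mRNA and protein of GNMT as well. The letter search does not test that result. A match or its absence describes the letters in this window and no more.

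After BDL with the control oligonucleotide, 7 of the 9 members tested were higher than without BDL and 0 were lower. They were Mmp2, Mmp7, Mmp9, Mmp12, Mmp14, Timp1 and Timp2, while Mmp19 and Timp3 did not pass the threshold and Mmp13 had too few reads to be tested. Mmp7, Mmp9, Mmp12 and Timp1 had at most 6, 17, 10 and 4 reads in a mouse without BDL. They passed the filter on read counts only through the BDL mice, so they could hardly have been called lower. Their direction and lack of overlap, also in inhibitor BDL, are therefore not independent support for a rise. Across all 13072 genes tested 35.7% passed in either direction with 19.1% upwards and 16.6% downwards. The median log2 fold change of the 9 members was 2.43, beside -0.01 over all genes. The groups did not overlap for 7 of the 9 members, against 29.6% of all genes. After BDL with the inhibitor, the same 7 members were higher and 0 were lower, where 21.5% of 13130 genes passed and 13.1% passed upwards and 8.44% downwards, and the groups did not overlap for 7 of 9 members against 18.3% of all genes. The share of all genes that passed in inhibitor BDL ran from 9.46% without inhibitor mouse 3 to 31.7% without inhibitor mouse 2. It was 10.5% without inhibitor mouse 4 and 13.1% to 13.8% without no BDL mouse 1, 2, 3 or 4. These comparisons share the 5 mice without BDL. The median was 2.46, beside -0.01 over all genes. Under scaling by library size alone the median over all genes moved to 0.79 and 0.82, and the share of passing genes that were higher went from 53.4% to 97.1% and from 60.8% to 98.7%. Fold changes are therefore read against that median. With scaling by library size without the 20 genes with the most counts the median was 0.41 and 0.38 and the share 90.6% and 94.3%.

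**Figure D1:**
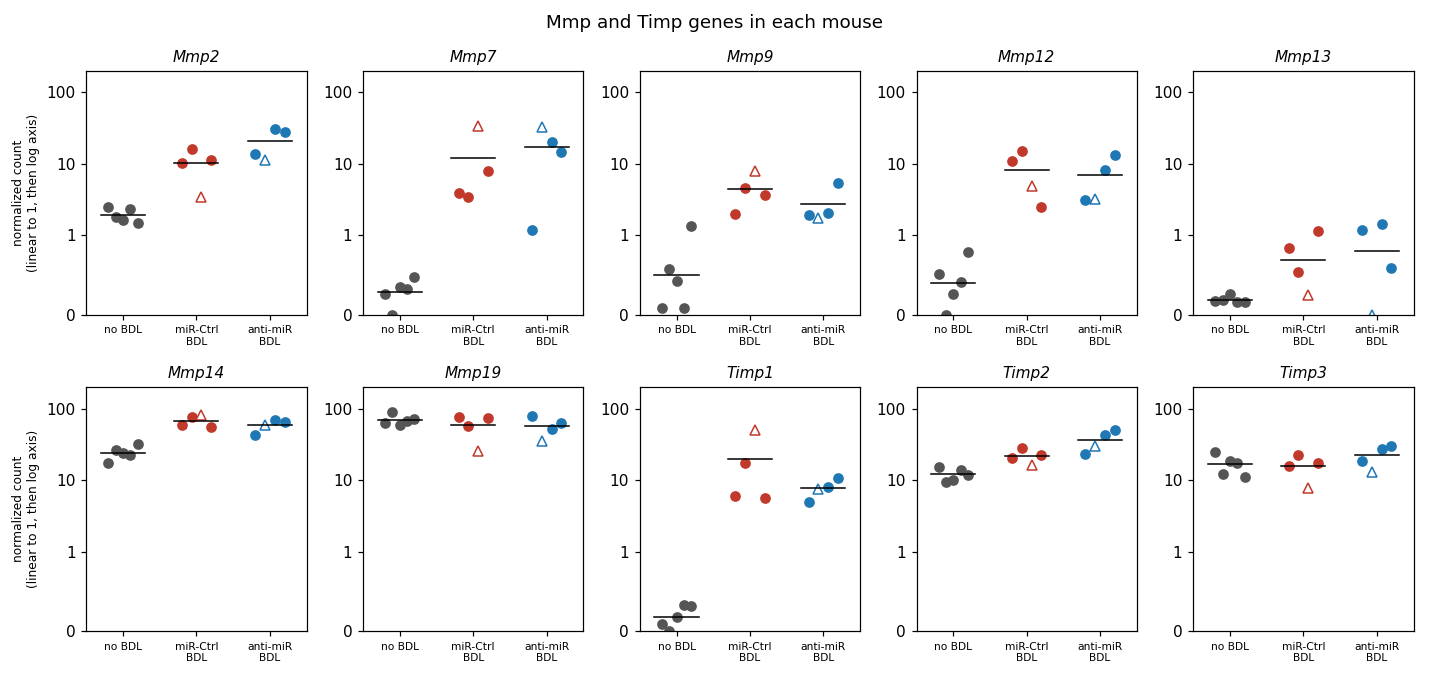
Normalized counts of the 10 genes in each of 13 mice, on an axis that is linear up to 1 and logarithmic above. Points are mice, lines are group means, and open triangles are miR-Ctrl mouse 3 and inhibitor mouse 2. All BDL mice lie above all mice without BDL for Mmp2, Mmp7, Mmp9, Mmp12, Mmp14, Timp1 and Timp2, and the groups overlap for Mmp19 and Timp3.

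Among the gelatinases, which cleave denatured collagen, Mmp2 (Entrez 17390, chr8:92827290-92853421 of GRCm38) measured 2.51, 1.81, 1.63, 2.30 and 1.51 normalized counts in the mice without BDL. It measured 10.4, 16.0, 3.42 and 11.2 in miR-Ctrl BDL and 13.7, 11.2, 30.9 and 27.5 in inhibitor BDL. Every BDL mouse was above every mouse without BDL, and miR-Ctrl mouse 3 was the lowest BDL mouse. The log2 fold change against no BDL was 2.43 ± 0.39 (SE, adjusted p = 0.0014) in miR-Ctrl BDL and 3.44 ± 0.34 (adjusted p = 0.000613) in inhibitor BDL. Without the 2 mice that stand apart these became 2.70 and 3.64.

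Mmp9 (Entrez 17395, chr2:164940326-164955850), the other gelatinase, is stored in neutrophils and is also made by macrophages. It measured 0.0864, 0.572, 0.429, 0.0822 and 1.35 without BDL, from 1 to 17 reads. It measured 1.99, 4.53, 7.83 and 3.66 in miR-Ctrl BDL and 1.94, 1.75, 2.05 and 5.31 in inhibitor BDL. The groups did not overlap, although no BDL mouse 5 came close to the lowest BDL mice. Against no BDL the log2 fold change was 3.13 ± 0.64 (adjusted p = 0.00464) and 2.46 ± 0.65 (adjusted p = 0.026). The call in inhibitor BDL held in 3 of 9 fits that left out 1 mouse, with an adjusted p of 0.0876 and a log2 fold change of 1.91 without inhibitor mouse 4. Without no BDL mouse 5 the log2 fold changes were 3.94 and 3.28.

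Mmp7 (Entrez 17393, chr9:7692090-7699585), or matrilysin, is a small metalloproteinase of epithelial cells. It measured 0.259, 0, 0.344, 0.329 and 0.477 without BDL, at most 6 reads a mouse. It measured 3.86, 3.40, 33.7 and 7.86 in miR-Ctrl BDL and 1.19, 32.5, 19.9 and 14.5 in inhibitor BDL. The BDL mice spread over more than 10 normalized counts within each group, and the 2 mice that stand apart were the highest of their groups. On the log2 scale the fold change was 5.35 ± 0.87 (adjusted p = 0.00152) and 5.85 ± 0.88 (adjusted p = 0.00296). It was 4.10 without miR-Ctrl mouse 3 and 5.34 without inhibitor mouse 2. The opposite-strand gene AV064505 shares 11.5% of the exon bases of Mmp7, and since the library kit does not mark strand these reads cannot be told apart.

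Mmp12 (Entrez 17381, chr9:7344397-7360461), or macrophage elastase, measured 0.518, 0, 0.258, 0.411 and 0.795 without BDL. It measured 10.8, 15.1, 4.83 and 2.46 in miR-Ctrl BDL and 3.13, 3.19, 8.27 and 13.1 in inhibitor BDL. The lowest BDL mouse was above the highest mouse without BDL. The log2 fold change was 4.36 ± 0.68 (adjusted p = 0.00124) and 4.10 ± 0.65 (adjusted p = 0.00344).

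Mmp13 (Entrez 17386, chr9:7272514-7283333), the interstitial collagenase of rodents, was at the limit of detection. Without BDL it had 2 or 3 reads in each mouse, 11 in all. There were 14, 9, 3 and 19 reads in miR-Ctrl BDL and 19, 0, 24 and 12 in inhibitor BDL, so the groups overlapped. The lowest count of each BDL group, 3 and 0, came from the mouse that stands apart. The ratio of depth-scaled reads was 3.85 (exact Poisson 95% interval 1.96 to 8.26) and 4.42 (2.29 to 9.37), intervals that cover counting error only. When all genes with at least 1 count were kept, the estimate was a log2 fold change of 1.88 (adjusted p = 0.0151) in miR-Ctrl BDL and 2.08 (adjusted p = 0.0842) in inhibitor BDL. Without the mouse that stands apart Mmp13 passed the filter and the threshold in both, at 2.12 (adjusted p = 0.00223) without miR-Ctrl mouse 3 and 2.47 (adjusted p = 0.00321) without inhibitor mouse 2.

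Mmp14 (Entrez 17387, chr14:54431598-54442456) is anchored in the cell membrane and activates the precursor of Mmp2. It measured 17.2, 25.9, 23.5, 22.4 and 32.2 without BDL. It measured 59.5, 75.2, 80.5 and 54.9 in miR-Ctrl BDL and 42.7, 59.8, 69.9 and 64.5 in inhibitor BDL. All 8 BDL mice were above all 5 mice without BDL, and Mmp14 had the smallest standard error of the called members. Against no BDL the log2 fold change was 1.498 ± 0.18 (adjusted p = 0.000423) and 1.31 ± 0.19 (adjusted p = 0.00278).

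Mmp19 (Entrez 58223, chr10:128790910-128800827) measured 63.0, 89.5, 59.4, 67.2 and 71.3 without BDL. It measured 75.7, 57.6, 25.8 and 73.0 in miR-Ctrl BDL and 79.3, 34.9, 51.3 and 61.8 in inhibitor BDL. The 3 groups overlapped, and the lowest value of each BDL group came from the mouse that stands apart. On the log2 scale the fold change was -0.24 ± 0.28 (adjusted p = 0.535, 95% interval -0.87 to 0.38) and -0.27 ± 0.23 (adjusted p = 0.419), and its sign turned under scaling by library size. The opposite-strand gene Tmem198b shares 22.3% of the exon bases of Mmp19, and their reads cannot be told apart.

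Of the inhibitors, Timp1 (Entrez 21857, chrX:20870166-20874737), which blocks most secreted metalloproteinases, had few reads without BDL, namely 1, 0, 2, 4 and 4. It measured 6.02, 17.4, 50.4 and 5.58 normalized counts in miR-Ctrl BDL and 4.94, 7.44, 8.09 and 10.6 in inhibitor BDL, against at most 0.329 without BDL. The mice with BDL did not overlap those without it, and the miR-Ctrl mice spread the most. Its log2 fold change was 6.66 ± 0.89 (adjusted p = 0.000614) and 5.34 ± 0.455 (adjusted p = 0.00031), and 5.65 without miR-Ctrl mouse 3. The ratio of depth-scaled reads, with 11 reads in the 5 mice without BDL, was 93.4 (exact Poisson 95% interval 52.0 to 188) and 42.4 (23.5 to 85.4).

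Timp2 (Entrez 21858, chr11:118301061-118355411) inhibits Mmp2 and also takes part in its activation by Mmp14. It measured 15.1, 9.25, 9.88, 13.9 and 11.8 without BDL. It measured 20.2, 28.5, 16.1 and 22.1 in miR-Ctrl BDL and 23.0, 29.6, 42.7 and 50.8 in inhibitor BDL. The groups with BDL lay above the group without it, by the least in miR-Ctrl mouse 3. Against no BDL the log2 fold change was 0.89 ± 0.20 (adjusted p = 0.00685) and 1.64 ± 0.24 (adjusted p = 0.00278).

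Timp3 (Entrez 21859, chr10:86300412-86349505), the inhibitor that stays bound to the matrix, measured 24.8, 12.3, 18.6, 17.1 and 10.9 without BDL. It measured 16.0, 22.4, 7.83 and 17.5 in miR-Ctrl BDL and 18.5, 12.9, 26.9 and 30.0 in inhibitor BDL. The groups overlapped, and the log2 fold change was -0.04 ± 0.31 (adjusted p = 0.942) and 0.44 ± 0.29 (adjusted p = 0.315). Timp3 lies within Syn3 on the opposite strand, and 21.3% of its exon bases are shared.

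**Figure D2:**
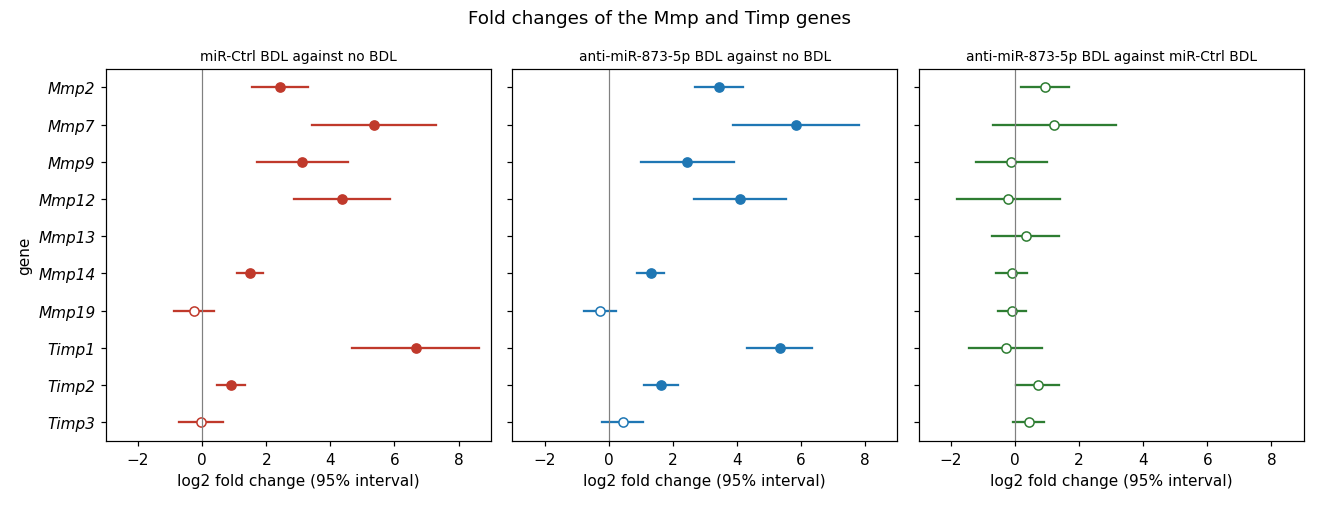
Log2 fold changes of the 10 genes with 95% intervals in the 3 comparisons. Filled points passed an adjusted p of 0.05 and open points did not. Mmp13 was not tested against no BDL. In the comparison of the 2 BDL groups all 10 points are open.

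Which members were most abundant was read per length, as normalized counts per kb of exon. Without BDL the level of Mmp19 was 19.8 ± 3.33 (SD, n = 5), above that of Mmp14 at 4.07 ± 0.92 in every mouse. Timp2 followed at 3.08 ± 0.65 and Timp3 at 2.05 ± 0.68, and the ranges of Mmp14 and Timp2 overlapped, as did those of Timp2 and Timp3. Mmp2 at 0.579 ± 0.128 was below Timp3 in every mouse, and the other 5 genes had means of 0.264 or less. In miR-Ctrl BDL the highest mean was that of Timp1 at 22.4 ± 23.8 (SD, n = 4), followed by Mmp19 at 16.4 ± 6.49, Mmp7 at 11.4 ± 13.5 and Mmp14 at 11.3 ± 2.06, whose ranges overlapped. That order rested on miR-Ctrl mouse 3, without which Mmp19 had the highest mean at 19.5 (n = 3), followed by Timp1 at 10.9, Mmp14 at 10.6, Timp2 at 6.06 and Mmp7 at 4.72. In inhibitor BDL the order was Mmp19 at 16.1 ± 5.28, Mmp7 at 15.9 ± 12.1, Mmp14 at 9.94 ± 1.97, Timp2 at 9.38 ± 3.22 and Timp1 at 8.75 ± 2.63, with overlapping ranges between neighbours. Without inhibitor mouse 2 Mmp19 was at 18.2, Mmp7 at 11.1, Timp2 at 9.97, Mmp14 at 9.91 and Timp1 at 8.88. Mmp9, Mmp12 and Mmp13 had the lowest means of both BDL groups.

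**Figure D3:**
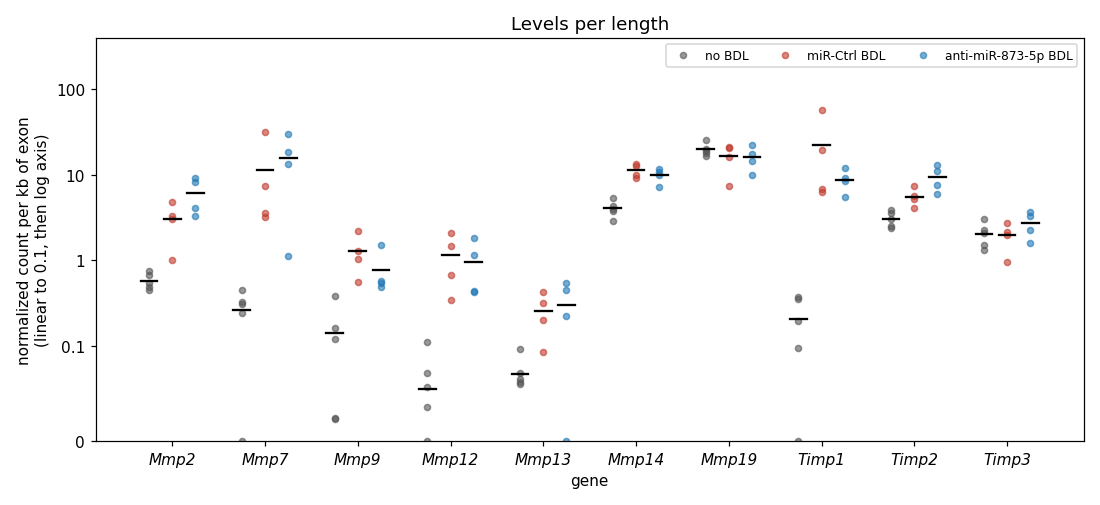
Normalized counts per kb of exon for the 10 genes, on an axis that is linear up to 0.1 and logarithmic above. Points are mice and black lines are group means. Mmp19 has the highest mean without BDL at 19.8, and Timp1 goes from a mean of 0.204 to 22.4 in miR-Ctrl BDL, or 10.9 without miR-Ctrl mouse 3, and 8.75 in inhibitor BDL.

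Whether inhibiting miR-873-5p changed these genes in ligated mice was addressed with the 3 mice per group of the table of the BDL groups. Of 13746 genes 0% passed, and 0 of 10 members did so, with 5 estimates above 0 and 5 below, where 51.2% of all genes were above 0. At an unadjusted p under 0.05 there were 2 members, Mmp2 and Timp2, where 6.28% of all genes had such a value. Mmp2 measured 13.7, 30.9 and 27.5 in inhibitor BDL and 10.4, 16.0 and 11.2 in miR-Ctrl BDL, which overlap. Its log2 fold change was 0.93 ± 0.31 (95% interval 0.19 to 1.68, adjusted p = 0.757). For Timp2 the values were 23.0, 42.7 and 50.8 against 20.2, 28.5 and 22.1, and the log2 fold change was 0.71 ± 0.29 (95% interval 0.04 to 1.39, adjusted p = 0.775). The 95% intervals were wide for Mmp7 (-0.70 to 3.16), Mmp12 (-1.81 to 1.40), Timp1 (-1.45 to 0.86), Mmp9 (-1.23 to 0.99) and Mmp13 (-0.71 to 1.38). Changes of either sign within them are compatible with the values of these mice. With all 4 mice of each group 0 members passed, and the log2 fold change of Timp1 was -1.34 (adjusted p = 0.98). DESeq2's Wald test called 30 genes in this comparison and 0 members.

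The promoters of the members are shown where a motif of AP-1, a factor known to act on metalloproteinase genes, was found. In RefSeq, 7 of the 10 members had a promoter window of 250 bases before to 50 after a start on GRCm38.p6, and TGANTCA, read on both strands, was found in 3 of them and in 7.81% of 32851 promoters. Members were counted by gene and the background by window. Since Mmp7 and Mmp12 have a second window each, these shares are not directly comparable. All 3 genes with the motif lie in the metalloproteinase cluster of chromosome 9. The motif is in capitals, and its position counts from the start.
Mmp13, chr9:7272464-7272500, plus strand, position -35: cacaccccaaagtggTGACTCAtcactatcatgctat
Mmp12, a second start, chr9:7347315-7347351, plus strand, position -44: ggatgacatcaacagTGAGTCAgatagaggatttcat
Mmp7, chr9:7692012-7692048, plus strand, position -63: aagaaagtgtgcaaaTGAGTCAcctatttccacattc
TATAAA was found in the windows of the same 3 genes and in 13.6% of all promoters, and the motif of NF-kB in 0 of 7 and in 0.411%. In Mmp12 TATAAA lay past the start, at position 4, and not before it. Timp1, Timp2, Timp3 and Mmp14 held neither AP-1 nor TATA letters in this window.

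Of the other 17 Mmp and Timp genes, 3 could be tested in miR-Ctrl BDL, of which 2 were higher, Mmp23 at a log2 fold change of 1.19 ± 0.35 (adjusted p = 0.0245) and Mmp24 at 0.86 ± 0.16 (adjusted p = 0.00276). In inhibitor BDL 5 were tested and 3 were higher. The count in miR-Ctrl BDL was 1 without no BDL mouse 3 or miR-Ctrl mouse 2, and that in inhibitor BDL was 5 without inhibitor mouse 1 or 2. Of the ADAM and ADAMTS proteinases, relatives that shed membrane proteins or cleave proteoglycans, 10 of 15 tested were higher and 0 lower in each comparison with no BDL. The largest changes in miR-Ctrl BDL were those of Adam8 at 3.73, Adamts4 at 3.00, Adamts15 at 2.01 and Adamts9 at 1.96 on the log2 scale. Of the genes of plasminogen activation and other regulators of metalloproteinase activity, 5 of 13 tested rose and 2 fell in miR-Ctrl BDL, and 7 rose and 1 fell in inhibitor BDL. In the latter 4 passed without inhibitor mouse 3, and 5 without inhibitor mouse 4 or no BDL mouse 2, 3 or 4. Plat, a plasminogen activator, had a log2 fold change of 4.56 ± 0.62 (adjusted p = 0.000654) in miR-Ctrl BDL, Plaur, the receptor of urokinase, 4.14, and Thbs1, a matrix glycoprotein, 3.64. Adam8, Adamts4, Plat and Plaur had at most 12, 4, 5 and 13 reads in a mouse without BDL. They too passed the filter on read counts only through the BDL mice. Plg, the precursor of plasmin made by hepatocytes, and Reck, a membrane-bound inhibitor of metalloproteinases, were the 2 that were lower in miR-Ctrl BDL. Their log2 fold changes were -0.54 (adjusted p = 0.0181) and -1.11 (adjusted p = 0.0467), and the groups overlapped for Reck. In inhibitor BDL Plg did not pass (adjusted p = 0.0889) and Reck did (adjusted p = 0.0358). Leaving out 1 mouse gave 5 to 9 passing genes of this list in miR-Ctrl BDL, beside 7. Between the BDL groups 0 genes of these 3 lists passed. The counts against no BDL stand beside shares over all genes of 19.1% upwards and 16.6% downwards for the control oligonucleotide. For the inhibitor those shares were 13.1% upwards and 8.44% downwards. The regulators that fell, 2 of 13 and 1 of 13, do not stand out from the downward shares.

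Cell type markers moved with the same groups. In miR-Ctrl BDL and inhibitor BDL, 5 and 4 of 8 stellate cell and myofibroblast markers tested were higher, 7 and 4 of 9 macrophage markers, 3 of 4 and 2 of 3 neutrophil markers, and 6 of 6 cholangiocyte markers in each. Of the 10 listed neutrophil markers 6 and 7 were not tested, as was 1 of the 7 listed cholangiocyte markers in each comparison. These shares cover only the markers with enough reads and say nothing of the rest. Of 7 hepatocyte markers 4 and 2 were lower, and of 7 endothelial cell markers 0 and 1. Of all genes, 19.1% and 13.1% were higher in these comparisons and 16.6% and 8.44% were lower. Sums of normalized counts left out Acta2, Des and Spp1, whose counts are not identical in the deposited tables. The stellate cell sum therefore covers 6 of 8 markers. It ran from 53.6 to 99.1 without BDL, from 189 to 630 in miR-Ctrl BDL and from 117 to 774 in inhibitor BDL. The macrophage sum ran from 73.3 to 382, from 443 to 1029 and from 270 to 807. The cholangiocyte list ran from 11.3 to 16.2, from 45.9 to 83.4 and from 39.7 to 101, with 1 of its 6 summed markers at 0 without BDL. The 2 mice with the lowest stellate cell sums of the BDL groups, at 189 and 117, were the lowest in Mmp2 in their groups. miR-Ctrl mouse 3, with the highest Timp1, Mmp7 and Mmp9, had a neutrophil sum of 237 against 15.8 to 65.4 in the other miR-Ctrl mice. Inhibitor mouse 4 had the highest neutrophil sum of its group, at 60.8, and its highest Timp1 and Mmp9. It also had the highest macrophage sum of that group, 807, whereas miR-Ctrl mouse 3 had a macrophage sum of 456. Below these top mice Timp1 and Mmp9 did not keep the order of the neutrophil sum. miR-Ctrl mouse 2, with a sum of 26.9, had Timp1 at 17.4 and Mmp9 at 4.53. miR-Ctrl mouse 4, with a sum of 65.4, had them at 5.58 and 3.66. Inhibitor mouse 1 had the lowest Timp1 of its group, 4.94, with a sum of 24.3. Mmp7 did not follow the neutrophil sum in inhibitor BDL either. Inhibitor mouse 2 had the highest Mmp7, at 32.5, with a sum of 15.6, and inhibitor mouse 3 had Mmp7 at 19.9 with the lowest sum, 13.9. In bulk RNA fewer cells of a type and less RNA per cell cannot be told apart, and the part of cell content in the members' changes was not tested.

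**Figure D4:**
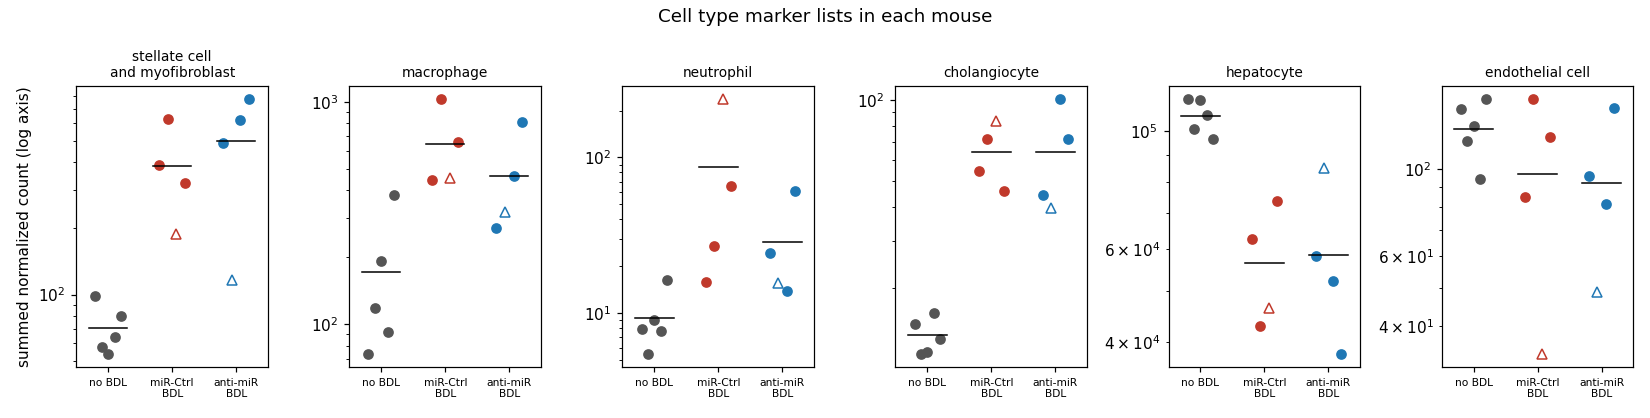
Summed normalized counts of 6 cell type marker lists in each mouse, on log axes that differ between panels. Acta2, Des, Spp1, Cps1 and Ly6g are not in the sums. Points are mice, lines are group means, and open triangles are miR-Ctrl mouse 3 and inhibitor mouse 2. Cholangiocyte sums lie between 11.3 and 16.2 without BDL and between 39.7 and 101 with BDL.

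For each member tested in the 3 comparisons, the gene outside the lists with the most similar pattern was sought among 12897 genes. Likeness was the root mean square difference of centred log2 CPM over 13 mice, after adding a prior of 2 reads scaled to library size. Mmp14 was most like C3 (0.16), Mmp19 most like Asb13 (0.15), Timp2 most like Cbx6 (0.16), Mmp2 most like Capn6 (0.35) and Mmp9 most like C5ar1 (0.42). Mmp12 was most like Rad51b (0.68), Timp1 most like Ccr1 (0.70) and Mmp7 most like Igdcc4 (0.80). Timp3 was most like Syn3 (0.23), the gene it shares exon bases with.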

How the data were processed

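Liver RNA of 13 mice was sequenced with the TruSeq RNA v2 kit as single reads of 50 nt, mapped by the authors to mm10 with TopHat and deposited as raw counts per Entrez gene in 3 tables, 1 per comparison. The counting program and annotation are not given in the sources used here. Counts of the 10 members are identical in the 3 tables. Columns of values left unused numbered 0. Mice were grouped by their labels. The 10 members, the gene lists and the tests were chosen with earlier results of these data known.

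The deposited counts were fitted by edgeR 4.0.16 under R 4.3.3 (filterByExpr, TMM, quasi-likelihood test, Benjamini-Hochberg adjustment at 0.05) for each deposited table, with limma 3.58.1 for the scaling plot and DESeq2 1.42.0 as an alternative. Standard errors were derived from the fold change and the F statistic. Levels used the 22246 genes whose counts agree in all tables. Lengths and 3′ UTRs are from GENCODE M21, coordinates, promoters and microRNA from RefSeq. The script was tested on simulated data. All 10 members are named, with at most 4 genes past the threshold per pathway list, by largest change, and a gene that this rule names is not reported here. Alternatives were other scalings, filters, tests, samples and thresholds. Protein sequences were not used here.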

Additional observations from a re-analysis of the deposited data

Results flagged for a closer look

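In groups of 4 or 5 mice, 29 sets of values with more than 3 reads in some mouse were examined for a single mouse far from the others by Dixon's criterion, which chance meets in about 1 in 20 groups. There were 2 such values. Mmp7 measured 33.7 normalized counts in miR-Ctrl BDL mouse 3, where the other mice of that group lay between 3.40 and 7.86. Mmp9 measured 5.31 in anti-miR-873-5p BDL mouse 4, where the others lay between 1.75 and 2.05. The cause was not tested.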

How the results depend on the processing

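Of the 7 members called in miR-Ctrl BDL against no BDL, 7 were called under every alternative run, and the count of members was 7 or 8. In inhibitor BDL against no BDL it ran from 6 to 8 when 1 mouse was left out and was 9 under scaling by library size alone, where Timp3 passed at a log2 fold change of 1.29 and Mmp19 passed at 0.58. Between the BDL groups 0 members passed in any fit. Of all genes, library size alone called 9635 in place of 4666 and 10194 in place of 2823, and library size without the 20 genes with the most counts called 5357 in place of 2823. In inhibitor BDL, leaving out 1 mouse called between 1261 genes, without inhibitor mouse 3, and 4317, without inhibitor mouse 2. It called 1392 without inhibitor mouse 4 and 1713 to 1824 without no BDL mouse 1, 2, 3 or 4. Without inhibitor mouse 2 and no BDL mouse 5, an alternative chosen after seeing the data, 4819 were called. For genes not past the threshold the sign depended on the scaling. Under library size alone Mmp19 was at 0.61 and Timp3 at 0.79 in miR-Ctrl BDL, and with the 20 genes left out they were at 0.22 and 0.41, and Mmp19 was at 0.13 in inhibitor BDL, shifts that follow the median over all genes. In miR-Ctrl BDL Timp3 was at 0.18 without miR-Ctrl mouse 3, and without that mouse and no BDL mouse 5 Mmp19 was at 0.000849 and Timp3 at 0.057. Leaving out 1 mouse gave -0.25 to 0.18 for Timp3 there. Between the BDL groups it gave -0.77 to 0.15 for Mmp9, -0.73 to 0.30 for Mmp12, -0.24 to 0.079 for Mmp14, -0.29 to 0.032 for Mmp19 and -0.58 to 0.44 for Timp1. In inhibitor BDL against no BDL Mmp9 ran from 1.91 to 3.28 and lost its call in 6 of 9 such fits.

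Mouse numbers are shared between groups. Of 10 pairs of mice with the same number, 1 had a correlation across genes over 0.1, with a range of -0.20 to 0.35. Between the BDL groups the only such pairs were mice 1, at 0.35, and mice 4, at -0.016. These are too few to tell whether mice with the same number deviate together there. With the number as a replicate block, 7, 7 and 0 members passed, out of 4063, 2195 and 0 genes. Between the BDL groups the block turned the sign of Mmp7 to -0.11, Mmp9 to 0.29, Mmp12 to 0.30, Mmp13 to -0.21 and Timp1 to 0.35, none of which passed. The cause was not tested. Depth limits Mmp13, Mmp7, Mmp12 and Timp1 without BDL most, with 11 to 24 reads in the group.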
